A study of Mus musculus with 16 samples.

Results

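Lung-Ctr organoids were compared with Ctr organoids, 2 and 3 libraries out of the 16 RNA-seq libraries of the series. Both groups are C57BL/6 mouse tumour organoids of the genotype Trp53-/-;Myc;sgCdkn2a, called TMP: they lack the tumour suppressor p53, carry the oncogene Myc and received a guide RNA against Cdkn2a, the locus of the cell cycle inhibitors p16 and p19Arf. The libraries were chosen by sample title alone, so no measured value entered the choice. Per the labels, the tumours grew in recipient mice after transplantation into the nasopharynx, and polyadenylated RNA of the organoids was sequenced. The series design names primary and metastasized organoids, yet the individual descriptions call all 5 TMP libraries primary. "Lung-Ctr" is therefore used here as a name and not as a site of growth. The sources used here do not state which element drives Myc, the age and number of the mice, or whether each library is a separate animal, clone or culture. Fits also contained the 5 TMPL libraries (TMP plus LMP1, a membrane protein of Epstein-Barr virus), labelled Lung-LMP1 (3 libraries) and LMP1 (2 libraries), for a shared estimate of the spread. Organoids of normal lung and normal nasopharynx (Normal_lung and Normal_nasopha, 3 libraries each) served only as a yardstick for marker genes.

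Organoids are cultures of epithelial cells that grow as balls in a gel. In a stratified epithelium such as that of the pharynx, basal cells carry the keratins Krt5 and Krt14, the transcription factor p63 (Trp63) and anchoring proteins that tie them to the basement membrane, a sheet built on type IV collagen. Cells of simple and glandular epithelia carry Krt7, Krt8 and Krt18 instead. Hedgehog signalling acts through the receptor Ptch1 and the transcription factor Gli1, and both genes are themselves switched on by the pathway.

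The Lung-Ctr libraries held 14360362 and 15053411 counts, and the Ctr libraries 13617193, 13884804 and 14374166 counts, so depth was similar. A level set by 3 counts lay between 0.199 and 0.220 CPM (here counts per 1000000 of the total count), and levels under this cannot be told from none. The organoids carried epithelial markers: Epcam, a surface protein of epithelia, had 1721 and 724 CPM in Lung-Ctr 1 and 2, against 1116, 462 and 666 CPM in Ctr 1, 2 and 3. Pax9 and Pitx1, transcription factors of the pharynx and face, were present in all 5 libraries (Pax9 at least 66.4 CPM in Lung-Ctr and 30.5 CPM in Ctr, scaled by the total count). Nkx2-1, the defining transcription factor of lung epithelium, had 0 counts in all 5 libraries, where normal lung organoids had 788 to 990 CPM, scaled by the total count. Sftpc, the surfactant protein of alveolar cells, scaled in the same way, reached at most 0.133 CPM in Lung-Ctr and 0 CPM in Ctr, against 26.4 to 122 CPM in normal nasopharyngeal and 37317 to 45810 CPM in normal lung organoids. Other genes of the list of 21 lung lineage and alveolar genes were present. The list summed to 997.2 and 586.5 CPM in Lung-Ctr, against 432.8, 575.8 and 583 CPM in Ctr. Of its 13 tested genes, 7 had a higher and 6 a lower mean in Lung-Ctr. By total count, Aqp5 had 369 and 277 CPM in Lung-Ctr, against 62.6, 172 and 139 CPM in Ctr. Sox9 had 189 and 24.8 CPM in Lung-Ctr, against 12.9, 38.9 and 15.2 CPM in Ctr. The summed level of 13 leukocyte markers was 8.89 to 19.4 CPM in Lung-Ctr and 12.9 to 42.6 CPM in Ctr, mostly from Cd68, with the common leukocyte marker Ptprc at no more than 3 counts in any of the 5. The 9 endothelial and 8 muscle markers summed to at most 10.1 and 0.941 CPM in any of the 5 libraries. The 12 fibroblast markers summed to 0.672 and 2.54 CPM in Lung-Ctr and to 0.688 and 2.28 CPM in Ctr 3 and Ctr 1, but to 107 CPM in Ctr 2. In bulk RNA, fewer cells of a type and less RNA per cell cannot be told apart.

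The libraries did not sort by group, which bears on each result that follows. Over the 13460 genes tested, the log2 ratio of Lung-Ctr 1 to Lung-Ctr 2 had an SD of 1.07, the largest of the 10 pairs. The 3 pairs of Ctr libraries had 0.840, 0.880 and 0.892, and the 6 pairs across the groups ran between 0.719 and 1.01. The most alike pair was Lung-Ctr 2 with Ctr 3. The first principal component of the log2 levels held 41.0% of the variance and put Lung-Ctr 1 at -64.9 and Lung-Ctr 2 at 51.6, the 2 ends of the axis, with Ctr 2, Ctr 1 and Ctr 3 between them at -29.3, 7.50 and 35.1. The second component, with 26.2%, set Ctr 2 apart at 57.9.

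**Figure D1:**
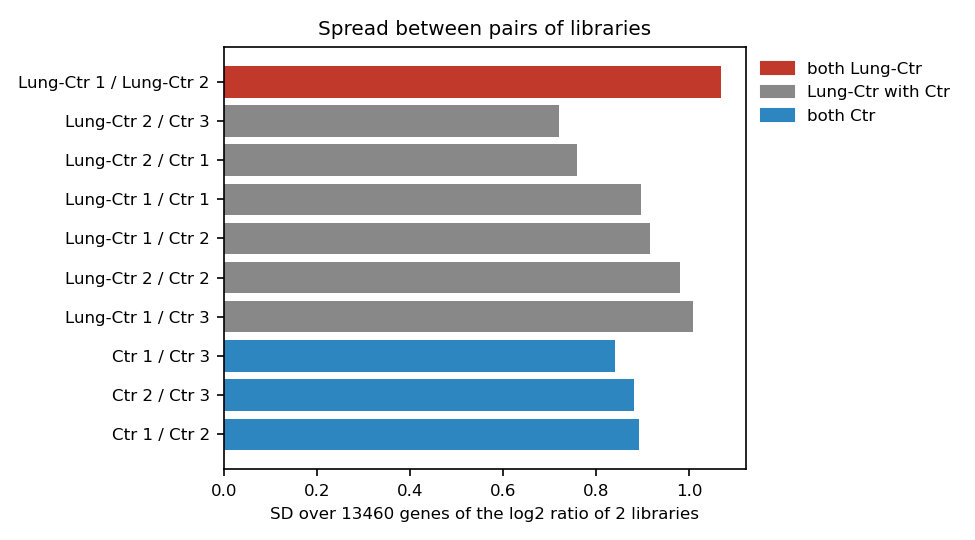
SD over all tested genes of the log2 ratio between 2 libraries (x axis), for each pair of the 5 TMP libraries. The bar of both Lung-Ctr libraries (red, 1.07) is the longest, and the pairs across groups (grey, 0.719 to 1.01) enclose the pairs of Ctr libraries (blue, 0.840 to 0.892).

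The comparison asks which genes differ between organoids with and without the Lung prefix on an equal genotype. edgeR's quasi-likelihood test called 0 of 13460 genes (0%) at an adjusted p under 0.05, and its smallest adjusted p was 0.635. At an unadjusted p under 0.05 it listed 717 genes, 5.33% of those tested, with 416 higher (3.09%) and 301 lower (2.24%) in Lung-Ctr. DESeq2 on the same counts called 40 genes (0.297%), 32 higher (0.238%) and 8 lower (0.0594%). Of those 40, 34 had groups that did not overlap, 18 differed over 2-fold between the Lung-Ctr libraries themselves, and 10 differed over 10-fold there. edgeR with Lung-Ctr 2 left out called 31 genes, Hist1h2bg, Col4a2, Gli1 and Ptch1 among them, and with Lung-Ctr 1 left out it called 0. Both Lung-Ctr libraries lay above all 3 Ctr libraries in 940 genes (6.98%) and below them in 971 genes (7.21%), 1911 in all (14.2%). The median log2 fold change over all genes was 0.0018, and the median 95% interval was 1.41 log2 units wide. The genes named next were taken by smallest p among those without overlap between the groups, 12 in each direction. For them, lack of overlap was thus a condition of the choice and not a result. None of these genes was called by edgeR, so their differences are given as values.

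Among the genes with higher levels in both Lung-Ctr libraries was Col4a2, the alpha-2 chain of type IV collagen. It had 209 and 42.4 CPM in Lung-Ctr, against 13.1, 10.1 and 12.1 CPM in Ctr. The 3 Ctr libraries lay close together and both Lung-Ctr libraries above them, but Lung-Ctr 1 was far above Lung-Ctr 2. Its mean was 126 ± 118 CPM in Lung-Ctr (SD, n = 2) and 11.8 ± 1.51 CPM in Ctr (SD, n = 3), a log2 fold change of 3.42 ± 0.54 (SE) with an edgeR adjusted p of 0.635 and a DESeq2 adjusted p of 5.2e-06. Col4a1, the alpha-1 chain with which it assembles, lies head to head with it on chromosome 8. Col4a1 had 156 and 25.5 CPM in Lung-Ctr, against 12.3, 12.1 and 46.7 CPM in Ctr. Ctr 3 lay above Lung-Ctr 2 for Col4a1, so here the groups overlapped. The log2 fold change of Col4a1 was 1.94 ± 0.85 with an edgeR adjusted p of 0.915.

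The promoter of the pair is shown because 1 stretch of DNA faces both genes while their levels did not keep 1 ratio. In GRCm38 (mm10), Col4a2 spans chr8:11312805-11449287 on the plus strand and Col4a1 spans chr8:11198423-11312826 on the minus strand. The window of RefSeq (GRCm38.p6) from 250 bases before to 50 bases after the Col4a2 start, chr8:11312555-11312854 on the plus strand, is printed with capitals for the 78 bases that are also in the window of Col4a1 (chr8:11312777-11313076, minus strand).
Col4a2 promoter: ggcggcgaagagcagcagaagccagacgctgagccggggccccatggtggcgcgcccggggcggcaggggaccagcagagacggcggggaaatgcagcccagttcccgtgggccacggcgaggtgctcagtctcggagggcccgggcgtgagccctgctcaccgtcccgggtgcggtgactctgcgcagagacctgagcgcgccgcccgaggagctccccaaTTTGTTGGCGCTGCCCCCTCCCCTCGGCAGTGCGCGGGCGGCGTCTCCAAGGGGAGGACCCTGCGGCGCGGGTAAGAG
In Lung-Ctr 1 and Lung-Ctr 2 both genes were ordered alike, with Lung-Ctr 1 above Lung-Ctr 2, whereas among the Ctr libraries only Col4a1 had a high value, in Ctr 3.

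Histone H2B genes of the chromosome 13 cluster, whose products package DNA in S phase, stood beside Col4a2. Hist1h2bg had 27.4 and 13.6 CPM in Lung-Ctr, against 4.41, 4.85 and 4.40 CPM in Ctr (log2 fold change 2.17 ± 0.34, edgeR adjusted p 0.635). Hist1h2bc had 167 and 72.8 CPM in Lung-Ctr, against 35.5, 41.8 and 28.1 CPM in Ctr (1.77 ± 0.37, edgeR adjusted p 0.915). In both genes Lung-Ctr 1 was well above Lung-Ctr 2. Histone H2B genes are near-identical copies, and replication histone mRNAs mostly lack a poly(A) tail, so the split of reads between copies and the share captured are uncertain.

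The genes that were alike in both Lung-Ctr libraries and above Ctr had smaller differences. Mpzl2, an adhesion protein of epithelia, had 397 and 429 CPM in Lung-Ctr, against 227, 202 and 240 CPM in Ctr (0.89 ± 0.15, edgeR adjusted p 0.635). Amotl2, a junction protein that binds the Hippo pathway effector YAP, had 143 and 165 CPM in Lung-Ctr, against 61.1, 78.5 and 47.3 CPM in Ctr (1.31 ± 0.29, edgeR adjusted p 0.915). In neither gene did a Lung-Ctr library reach into the Ctr range, which the choice required. Slc26a2, a sulfate transporter, had 107 and 82.1 CPM in Lung-Ctr, against 46.5, 33.3 and 29.1 CPM in Ctr (1.38 ± 0.22, edgeR adjusted p 0.635). Ttc39c had 30.8 and 23.8 CPM in Lung-Ctr, against 9.46, 6.65 and 9.29 CPM in Ctr (1.69 ± 0.28, edgeR adjusted p 0.635). In both of these, as the choice required, the lowest Lung-Ctr library was above the highest Ctr library. Tmem245, the secreted protease inhibitor Cst3, the Golgi mannosidase Man2a1, the tetraspanin Tspan9 and the LIM protein Fhl2 completed the set, with log2 fold changes between 0.61 and 0.94. DESeq2 called all 12 genes of this direction, but they were chosen by smallest p on the same counts, so this is no independent support.

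Of the 12 genes lower in both Lung-Ctr libraries, 10 are described, and the widest gap by fold was that of Sox7, a transcription factor. It had 0.706 and 4.84 CPM in Lung-Ctr, against 20.1, 15.6 and 24.2 CPM in Ctr (log2 fold change -2.84 ± 0.73, edgeR adjusted p 0.915). Tslp, a cytokine released by epithelia that acts on dendritic cells and T helper 2 responses, had 74.0 and 34.8 CPM in Lung-Ctr, against 283, 271 and 175 CPM in Ctr (-2.16 ± 0.60, edgeR adjusted p 0.915). As the choice required, the highest Lung-Ctr value of Tslp was under the lowest Ctr value. Lgals1, the sugar-binding protein galectin-1, had 7.27 and 8.26 CPM in Lung-Ctr, against 14.2, 39.1 and 21.2 CPM in Ctr (-1.68 ± 0.37, edgeR adjusted p 0.915). Id3, an inhibitor of basic helix-loop-helix factors and a target of BMP signalling, had 9.74 and 16.1 CPM in Lung-Ctr, against 29.6, 46.8 and 48.9 CPM in Ctr (-1.69 ± 0.41, edgeR adjusted p 0.915). For Lgals1 the Ctr libraries were spread more widely than the Lung-Ctr libraries. Tcf19, Aldh9a1, Nnt, Lrrc28, Psip1 and Ptma were lower as well, with log2 fold changes between -1.16 and -0.64. DESeq2, on the same counts from which the genes were chosen, called 4 of the 12 lower genes, namely Sox7, Tslp, Lgals1 and Id3.

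**Figure D2:**
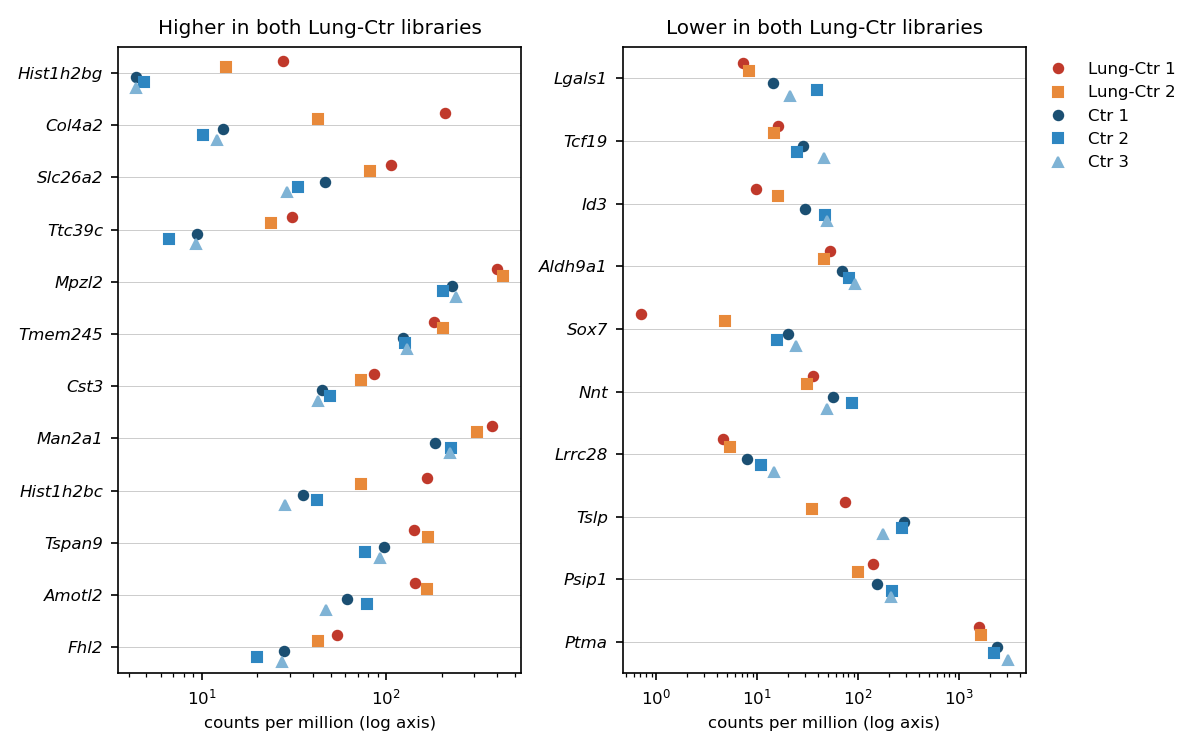
CPM (log axis) in each of the 5 libraries for the 12 higher (left) and 10 lower (right) genes described of those with smallest p; each point is 1 library, red and orange for Lung-Ctr 1 and 2, blue shades for Ctr 1 to 3. In every row the Lung-Ctr points lie on 1 side of the Ctr points, as the choice requires, and Sox7 (0.706 and 4.84 CPM) and Col4a2 (209 and 42.4 CPM) show the widest distances between the Lung-Ctr points.

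The genes of largest contrast within Lung-Ctr centred on Hedgehog targets in Lung-Ctr 1. Gli1 (chr10:127329882-127341974) had 6988 counts in Lung-Ctr 1 and 4 counts in Lung-Ctr 2, that is 493 and 0.269 CPM, against 0.355, 0.0693 and 0.964 CPM in Ctr. Ptch1 (chr13:63508328-63573598) had 563 and 40.8 CPM in Lung-Ctr, against 38.5, 27.3 and 32.6 CPM in Ctr. Lung-Ctr 1 alone was high in both genes, Lung-Ctr 2 lay within or just above the Ctr range, and the 5 TMPL libraries held at most 0.145 CPM of Gli1 and 31.6 to 42.6 CPM of Ptch1. Ptch1 and the other genes of the pathway, unlike Gli1, were chosen for description after their values were seen. The ligand genes Shh and Ihh had at most 1 count in any of the 5 libraries, and Dhh had 0.565 and 0.739 CPM in Lung-Ctr, against 1.21, 0.554 and 1.72 CPM in Ctr. Smo, the signal transducer under Ptch1, had 57.9 and 101 CPM in Lung-Ctr, against 65.9, 59.0 and 85.1 CPM in Ctr. Sufu, which holds Gli proteins inactive, had 45.2 and 50.8 CPM in Lung-Ctr, against 37.9, 36.8 and 58.6 CPM in Ctr. These genes upstream of Gli1 did not share its pattern. Gli3, mainly a repressor, was lowest in Lung-Ctr 1, with 29.5 and 52.3 CPM in Lung-Ctr, against 51.3, 62.5 and 60.2 CPM in Ctr. Hhip, a further usual target, had 0 and 1 counts in Lung-Ctr and at most 2.15 CPM in Ctr. The edgeR log2 fold changes were 9.03 ± 2.08 for Gli1 and 3.20 ± 0.78 for Ptch1, both with an edgeR adjusted p of 0.915, while DESeq2 called both. With Lung-Ctr 1 left out, that of Gli1 was -0.76.

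Other genes of large range between the Lung-Ctr libraries were Cp, Rgs16 and Stra6. The copper carrier ceruloplasmin (Cp) had 1063 and 4.17 CPM in Lung-Ctr, against 46.8, 398 and 35.2 CPM in Ctr. Foxa2, a factor of endoderm and a member of the lung lineage list, had 29.7 and 0 CPM in Lung-Ctr, against 0.0711, 0.139 and 0.413 CPM in Ctr. Both were above all Ctr libraries in Lung-Ctr 1 and below the highest Ctr library in Lung-Ctr 2. Rgs16, a regulator of G protein signalling, had 292 and 0.537 CPM in Lung-Ctr, against 10.2, 13.3 and 2.41 CPM in Ctr. Stra6, the receptor for retinol-binding protein, went the other way, with 0.212 and 292 CPM in Lung-Ctr, against 81.1, 14.1 and 7.78 CPM in Ctr. In all, Lung-Ctr 1 exceeded Lung-Ctr 2 over 2-fold in 1438 genes (10.7%) and was over 2-fold below it in 1171 genes (8.7%), 2609 together (19.4%). 274 genes were over 10-fold apart. In 9348 of the 13460 genes (69.5%) the 2 Lung-Ctr libraries were further apart than the 2 group means.

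The keratins divided the Lung-Ctr libraries along the basal and simple types. Krt5 had 20.1 and 2016 CPM in Lung-Ctr, against 658, 424 and 1803 CPM in Ctr. Trp63 had 52.9 and 346 CPM in Lung-Ctr, against 152, 57.7 and 333 CPM in Ctr. Col17a1, the collagen of hemidesmosomes, had 1.41 and 318 CPM in Lung-Ctr, against 24.9, 27.8 and 159 CPM in Ctr. In all 3 genes Lung-Ctr 1 was the lowest of the 5 libraries and Lung-Ctr 2 the highest. Of the 20 basal genes tested, 15 were over 2-fold lower and 1 over 2-fold higher in Lung-Ctr 1 than in Lung-Ctr 2. Krt8 was opposed to them, with 1499 and 121 CPM in Lung-Ctr, against 342, 459 and 318 CPM in Ctr. Krt7 had 783 and 57.6 CPM in Lung-Ctr, against 274, 411 and 63.8 CPM in Ctr. Of the 6 simple keratins, 5 were highest of the 5 libraries in Lung-Ctr 1, where 20.3% of all genes were, and 4 exceeded Lung-Ctr 2 over 2-fold. Group differences in these lists therefore depended on 1 library: the median log2 fold change of the basal list was 0.49, 1.03 without Lung-Ctr 1 and -1.66 without Lung-Ctr 2, and that of the simple keratins was 0.86, -1.53 without Lung-Ctr 1 and 1.65 without Lung-Ctr 2. Sox2, a stem cell factor of the list, was an exception in that both Lung-Ctr libraries lay above Ctr, with 171 and 66.2 CPM in Lung-Ctr, against 37.0, 54.9 and 61.0 CPM in Ctr (1.22 ± 0.37, edgeR adjusted p 0.915).

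Genes of the NRF2 antioxidant response followed the basal side. Nqo1, a quinone reductase, had 19.1 and 366 CPM in Lung-Ctr, against 65.0, 50.4 and 243 CPM in Ctr. Aldh3a1, an aldehyde dehydrogenase, had 7.20 and 731 CPM in Lung-Ctr, against 64.1, 24.3 and 196 CPM in Ctr. Both were lowest in Lung-Ctr 1 and highest in Lung-Ctr 2, and 14 of 21 genes of the list were over 2-fold lower in Lung-Ctr 1 than in Lung-Ctr 2, against 4 over 2-fold higher. Of 15 Notch genes, 7 were over 2-fold lower in Lung-Ctr 1 and 0 higher. In the opposite sense, 15 of 26 NF-kB targets and 10 of 20 immediate early genes were over 2-fold higher in Lung-Ctr 1 and 0 lower.

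**Figure D3:**
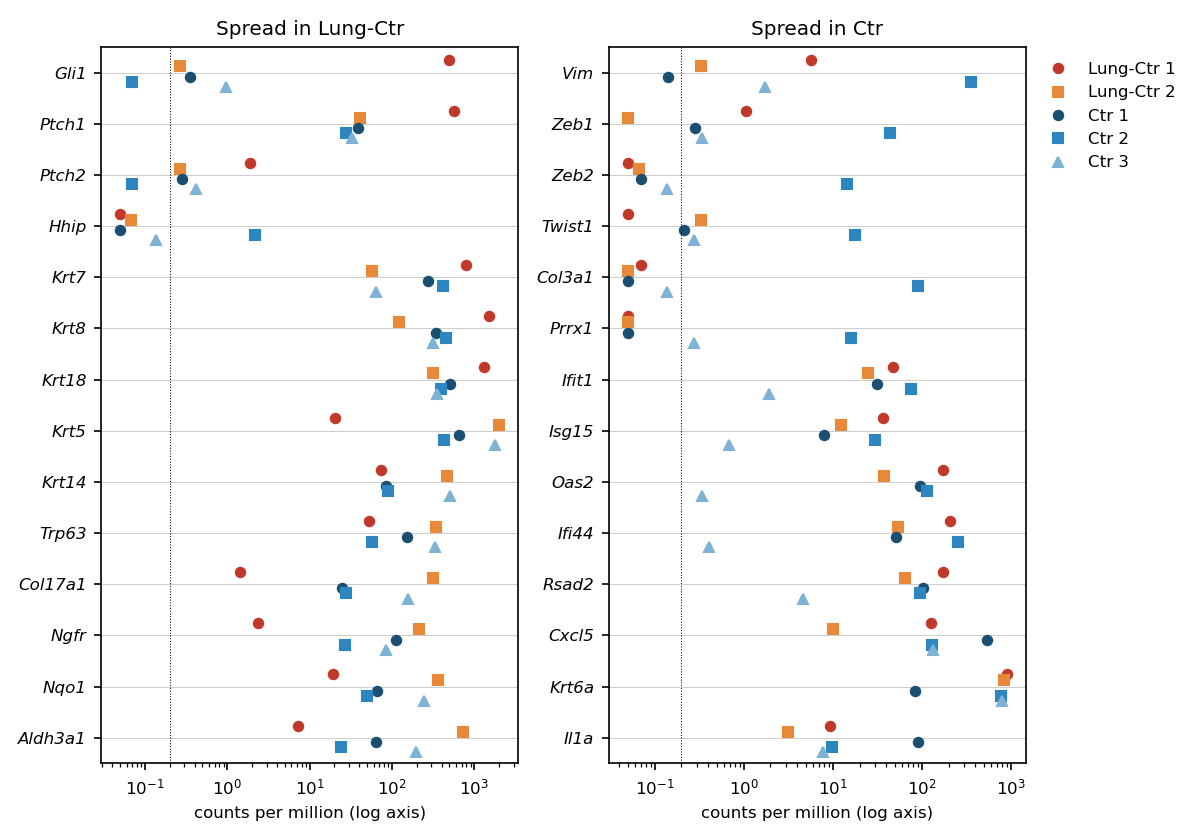
CPM (log axis) in each library for genes that part the Lung-Ctr libraries (left) and the Ctr libraries (right); values under 0.05 CPM are drawn at 0.05, and the dotted line at 0.2 marks about 3 counts. Gli1 and Ptch1 stand out in Lung-Ctr 1 (493 and 563 CPM), basal genes are lowest there, the mesenchymal genes are high in Ctr 2 alone, and the interferon genes are lowest in Ctr 3.

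The Ctr libraries differed among themselves over 2-fold in 3716 genes (27.6%) and over 10-fold in 288 genes (2.14%). Ctr 2 carried mesenchymal genes. The intermediate filament Vim had 5.65 and 0.336 CPM in Lung-Ctr, against 0.142, 359 and 1.72 CPM in Ctr. Zeb1, a repressor of epithelial genes, had 1.06 and 0 CPM in Lung-Ctr, against 0.284, 44.5 and 0.344 CPM in Ctr. Col3a1, a fibrillar collagen, had 0.0706 and 0 CPM in Lung-Ctr, against 0, 91.6 and 0.138 CPM in Ctr. Each of the 3 was high in Ctr 2 alone. Of the 21 genes of the mesenchymal list, 16 were highest of the 5 libraries in Ctr 2, where 19.3% of all genes were. Epcam was lowest in the same library, and the fibroblast marker sum there was 107 CPM, mostly from Col3a1. Of the 6 fibroblast genes tested, 5 were highest of the 5 libraries in Ctr 2 and 1 in Lung-Ctr 1. The fibroblast collagen Col1a1 had 0.901 CPM in Ctr 2, its highest value. The fibroblast marker Dcn had 10.2 CPM there by total count, against at most 0.133 CPM in the other libraries. The part of other cells in these values was not tested. The list's median log2 fold change of -1.34 was -0.14 without Ctr 2. The water channel Aqp4, the potassium channel Kcnt1 and the urothelial protein Upk1b were among the genes of largest range within Ctr and were highest in Ctr 2. Aqp4 had 0.353 and 0 CPM in Lung-Ctr, against 0.498, 167 and 0 CPM in Ctr. Kcnt1 had 17.5 and 0 CPM in Lung-Ctr, against 0.355, 181 and 0.0688 CPM in Ctr. Upk1b had 4.87 and 4.90 CPM in Lung-Ctr, against 0.569, 129 and 1.24 CPM in Ctr.

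Interferon-stimulated genes, which cells switch on upon sensing foreign nucleic acid or interferon, were lowest in Ctr 3. All 32 genes of the list had their lowest value of the 5 libraries there, where 19.8% of all genes did. Oas2, a sensor of double-stranded RNA, had 174 and 37.3 CPM in Lung-Ctr, against 96.2, 114 and 0.344 CPM in Ctr. Ifi44 had 207 and 54.8 CPM in Lung-Ctr, against 51.7, 256 and 0.413 CPM in Ctr. Oas2 and Ifi44 were both among the 6 genes of largest range within Ctr. Isg15, a ubiquitin-like modifier, had 37.0 and 12.4 CPM in Lung-Ctr, against 7.89, 29.8 and 0.688 CPM in Ctr. Bst2, which tethers budding virus, had 208 and 48.6 CPM in Lung-Ctr, against 54.6, 138 and 22.5 CPM in Ctr. Ctr 3 was the lowest library for each of these genes. The list's highest values were in Lung-Ctr 1 for 23 of 32 genes, beside 20.3% of all genes. Class I antigen presentation had its lowest value in Ctr 3 for 14 of 17 genes, with B2m, the light chain of class I, at 726 and 188 CPM in Lung-Ctr, against 502, 439 and 160 CPM in Ctr. Between the groups, 29 of the 32 interferon genes had a higher mean in Lung-Ctr, none at an unadjusted p under 0.05, with a median log2 fold change of 0.69, which was -0.15 without Lung-Ctr 1 and 0.23 without Ctr 3.

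Stretches of 40 bases from the promoters of 4 of these genes are printed because the genes had their lowest level in the same library and share a letter pattern. The pattern searched was GAAA, any 2 bases and GAAA again, on either strand, within 250 bases before to 50 bases after the gene start in the RefSeq windows (GRCm38.p6). It was found in 11 of the 22 interferon genes present there (50%) and in 3.99% of 27025 genes with a window. Capitals mark only the last match of each window, read on the gene's strand. Further matches that overlap it, as in the Isg15 and Bst2 stretches, are left in lower case. A match with TTTC at both ends lies on the opposite strand.
Ifit1, chr19:34640789-34640828 on the plus strand: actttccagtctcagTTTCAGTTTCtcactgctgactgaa
Isg15, chr4:156200860-156200899 on the minus strand: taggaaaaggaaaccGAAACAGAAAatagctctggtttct
Oas3, chr5:120777710-120777749 on the minus strand: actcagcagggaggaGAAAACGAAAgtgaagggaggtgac
Bst2, chr8:71537572-71537611 on the minus strand: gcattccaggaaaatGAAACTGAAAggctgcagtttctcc
Of the genes with a printed stretch, Ifit1 had 47.0 and 24.8 CPM in Lung-Ctr, against 31.1, 76.4 and 1.93 CPM in Ctr. Oas3 had 220 and 74.8 CPM in Lung-Ctr, against 145, 105 and 1.93 CPM in Ctr. A match describes the letters only.

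Ctr 1 had the lowest value of the 5 libraries for most genes of the list of Myc targets and ribosome biogenesis, and an extreme value for some other genes. The neutrophil attractant Cxcl5 had 125 and 10.1 CPM in Lung-Ctr, against 545, 132 and 134 CPM in Ctr. Krt6a, a keratin of activated squamous cells, had 904 and 838 CPM in Lung-Ctr, against 84.7, 783 and 802 CPM in Ctr. Cxcl5 was highest in Ctr 1 and Krt6a lowest there. Of the 24 genes of the list of Myc targets and ribosome biogenesis, 19 were lowest in Ctr 1 and 18 highest in Ctr 3, where 18.9% and 18.8% of all genes were. Nop56, a nucleolar protein, had 273 and 243 CPM in Lung-Ctr, against 145, 330 and 313 CPM in Ctr. All 24 had a lower mean in Lung-Ctr, with a median log2 fold change of -0.35, but none reached an unadjusted p under 0.05, and without Ctr 3 the median was -0.13. Myc itself had 463 and 575 CPM in Lung-Ctr, against 793, 642 and 620 CPM in Ctr (-0.40 ± 0.29, edgeR adjusted p 0.917). Myc counts can join the mouse gene and any introduced copy, which the files do not separate.

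The other genes of the genotype did not part the groups. Trp53 had 59.1 and 86.9 CPM in Lung-Ctr, against 56.2, 74.9 and 65.0 CPM in Ctr (0.16 ± 0.20, edgeR adjusted p 0.935). Cdkn2a had 123 and 364 CPM in Lung-Ctr, against 301, 220 and 217 CPM in Ctr (-0.01 ± 0.41, edgeR adjusted p 0.997). Lung-Ctr 1 was the lowest and Lung-Ctr 2 the highest of the 5 for Cdkn2a. Counts over a whole gene do not show whether its protein is lost, and for both genes they check no label. Of the 22 genes of the p53 pathway list, which holds Trp53 itself, its relatives, its regulators and its targets, 1 was lower at an unadjusted p under 0.05 and 0 were higher, beside 2.24% lower over all genes. It was the death receptor Fas, at 0.706 and 1.28 CPM in Lung-Ctr, against 3.98, 5.61 and 2.62 CPM in Ctr.

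A gene was counted as stable when the 95% interval of its fold change lay wholly within 1.5-fold either way. That held for 2516 of 13460 genes (18.7%), 6 of which had no count in any of the 5 libraries and so carry no information. The share was 34.7% of genes with a mean of at least 32 CPM (2233 of 6443) and 4.03% of the rest (283 of 7017), so a gene of low level was seldom bounded. All 5 libraries lay within 1.5-fold of each other in 3665 genes (27.2%) and within 2-fold in 7777 genes (57.8%). The stable count rests on the spread estimated over all 10 tumour libraries, and it was 919 when the 5 TMP libraries were fitted alone, 1056 without Lung-Ctr 1 and 1225 without Lung-Ctr 2.

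The 10 genes with the narrowest intervals were Csnk1d, Yme1l1, Mtpn, Capza1, St13, Gpbp1, Ddx6, Ppfibp1, Snw1 and Morf4l1. Csnk1d, a casein kinase, had 236 and 245 CPM in Lung-Ctr, against 235, 228 and 232 CPM in Ctr, with an interval between -0.19 and 0.30 (log2). Snw1, a splicing factor, had 110 and 110 CPM in Lung-Ctr, against 102, 105 and 104 CPM in Ctr, with an interval between -0.17 and 0.34. The mitochondrial protease Yme1l1 had 267 and 262 CPM in Lung-Ctr, against 253, 248 and 239 CPM in Ctr, with an interval between -0.14 and 0.34. In none of the 10 did the libraries of a group differ by more than 1.09-fold.

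The share of stable genes was highest for oxidative phosphorylation and cytosolic ribosomal proteins, followed by the MAX network of Myc partners (4 of 8, 50%). Of 24 genes of oxidative phosphorylation at 32 CPM or more, 19 were stable (79.2%, against 34.7% of all genes of that level), among them the subunits Sdha (interval between -0.36 and 0.17) and Atp5a1 (between -0.37 and 0.20). Of 25 cytosolic ribosomal proteins, 15 were stable (60.0%), although 22 of the 25 were highest in Lung-Ctr 2, where 22.2% of all genes were. The proteasome core had 9 of 20 (45.0%) and cholesterol synthesis 8 of 20 (40.0%), including Hmgcs1, which had 451 and 444 CPM in Lung-Ctr, against 469, 398 and 469 CPM in Ctr. Of the 18 genes commonly used as controls, 7 were stable (38.9%), among them Actb, Ppia, Ywhaz, Sdha and Rplp0. Gapdh was not, with an interval between -0.28 and 0.62, nor was Tbp, which had 26.3 and 29.9 CPM in Lung-Ctr, against 34.9, 39.5 and 44.3 CPM in Ctr (-0.49 ± 0.17, edgeR adjusted p 0.915). In 12 of the 25 lists with at least 8 members of that level, 0 members were stable, among them basal layer, squamous differentiation, interferon response, NF-kB targets, and Myc targets and ribosome biogenesis.

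**Figure D4:**
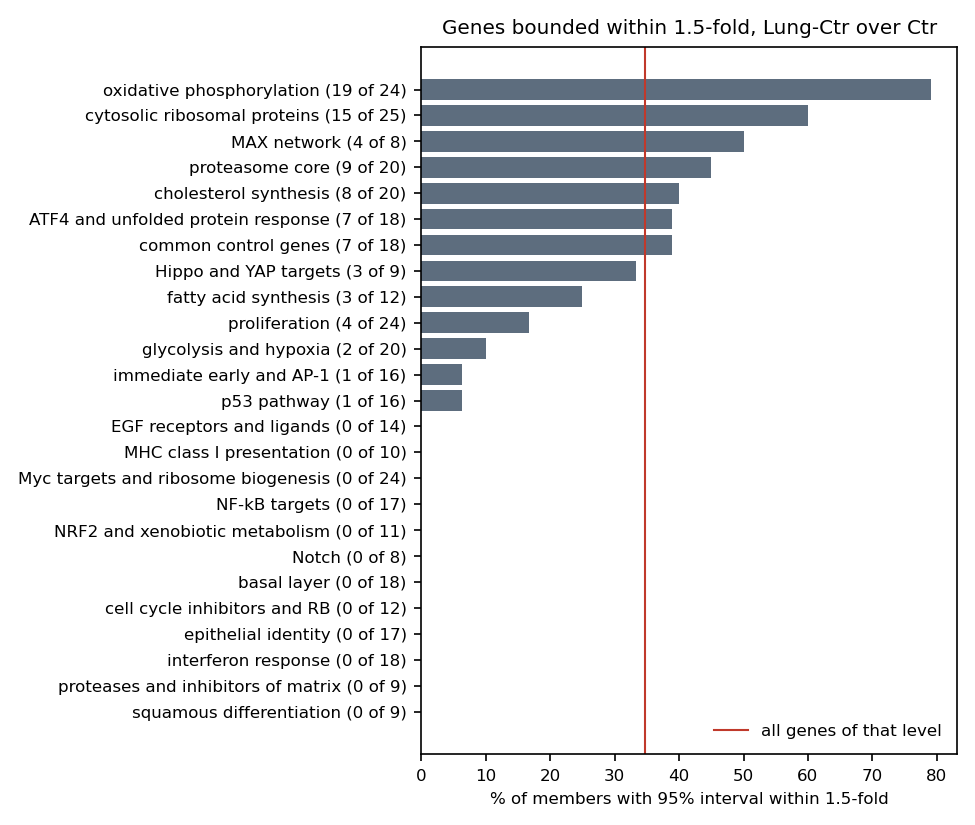
Share of each list's genes with a mean of at least 32 CPM whose 95% interval lies within 1.5-fold between Lung-Ctr and Ctr (x axis, percent; counts in brackets), beside the share of all genes of that level (red line, 34.7%). Oxidative phosphorylation is at 79.2% and 12 lists are at 0.

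Some signalling lists held several genes at an unadjusted p under 0.05, to be read against 3.09% higher and 2.24% lower over all genes. Of 20 genes of TGF-beta and BMP signalling, 5 were higher and 2 lower. The ligand Tgfb3 had 49.1 and 60.3 CPM in Lung-Ctr, against 17.5, 20.6 and 3.58 CPM in Ctr, and the ligand Bmp7 had 98.7 and 120 CPM in Lung-Ctr, against 66.9, 27.4 and 79.5 CPM in Ctr. Inhba, Bmp4 and the decoy receptor Bambi were the other higher ones, none above 15.03 CPM in any library, and Id3 and the ligand Tgfb2 the lower ones. Tgfb2 had 0.847 and 0.806 CPM in Lung-Ctr, against 3.48, 10.7 and 1.45 CPM in Ctr. Of 15 Notch genes, Hes1, Jag1 and Nrarp were higher and Mfng lower. Of 14 Hippo genes, 3 were higher and 1 lower. Ctgf, a YAP target, had 116 and 21.4 CPM in Lung-Ctr, against 9.74, 10.3 and 5.09 CPM in Ctr (3.03 ± 0.93, edgeR adjusted p 0.915), and Tead4, the DNA-binding partner of YAP, had 66.7 and 53.3 CPM in Lung-Ctr, against 29.4, 42.4 and 39.3 CPM in Ctr. Yap1, Tead1 and Lats1 of the same list were stable. The target Cyr61 had 412 and 104 CPM in Lung-Ctr, against 303, 130 and 95.5 CPM in Ctr, and so did not follow Ctgf.

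Of 11 genes of the acute phase and antimicrobial list, 4 were lower and 0 higher at that threshold. The iron-trapping protein Lcn2 had 16.1 and 6.32 CPM in Lung-Ctr, against 208, 310 and 40.4 CPM in Ctr (-4.06 ± 1.23, edgeR adjusted p 0.915). Complement C3 had 70.7 and 30.4 CPM in Lung-Ctr, against 478, 176 and 71.3 CPM in Ctr. In both, the groups did not overlap, though for C3 by less than 1 CPM. Ltf, lactoferrin, had 53.4 and 19.9 CPM in Lung-Ctr, against 158, 876 and 14.3 CPM in Ctr, so Ctr 3 lay under Lung-Ctr. The median log2 fold change of the list was -2.26 and ran between -3.03 and -1.23 when 1 library was left out, with Ctr 2 as the library whose loss brought it nearest to 0.

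Of 12 genes of fatty acid synthesis, 2 were higher at that threshold and 0 lower, the stearoyl-CoA desaturases Scd1 and Scd2. Scd2 had 4421 and 4077 CPM in Lung-Ctr, against 3224, 2764 and 2942 CPM in Ctr (0.51 ± 0.14, edgeR adjusted p 0.915). Scd1 had 696 and 617 CPM in Lung-Ctr, against 498, 448 and 409 CPM in Ctr (0.54 ± 0.14, edgeR adjusted p 0.915). In neither gene did the groups overlap, while the synthase Fasn had 714 and 518 CPM in Lung-Ctr, against 452, 723 and 920 CPM in Ctr. Among 24 genes of glycolysis and hypoxia, 21 had a higher mean in Lung-Ctr with a median of 0.43, which ran between 0.28 and 0.70 when 1 library was left out. Only Pdk1, which turns pyruvate away from mitochondria, had an unadjusted p under 0.05, with 499 and 287 CPM in Lung-Ctr, against 249, 192 and 167 CPM in Ctr. Among 25 proliferation genes, the mitotic genes Aurka and Foxm1 were higher and the replication helicase genes Mcm6 and Mcm7 lower. Aurka had 122 and 145 CPM in Lung-Ctr, against 107, 81.3 and 97.0 CPM in Ctr, and Mcm7 had 155 and 148 CPM in Lung-Ctr, against 164, 219 and 278 CPM in Ctr. Mki67, the common proliferation marker, had 442 and 559 CPM in Lung-Ctr, against 688, 433 and 597 CPM in Ctr, and the groups overlapped. The cyclin Ccnd2 had 516 and 1354 CPM in Lung-Ctr, against 414, 491 and 504 CPM in Ctr (0.99 ± 0.33, edgeR adjusted p 0.915), higher in both Lung-Ctr libraries and mostly in Lung-Ctr 2.

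**Figure D5:**
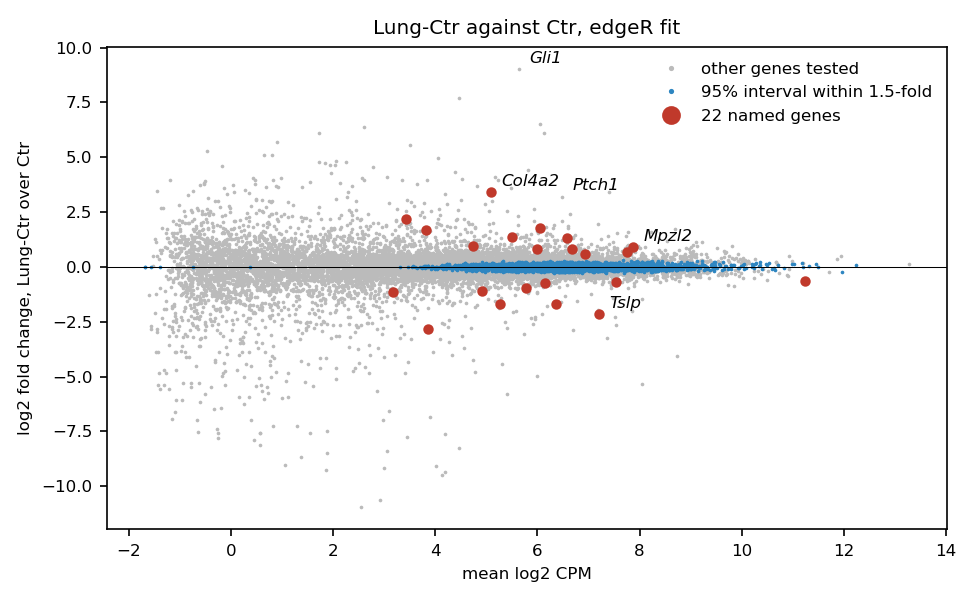
log2 fold change of Lung-Ctr over Ctr from the edgeR fit (y axis) against mean log2 CPM (x axis) for all tested genes; blue points have a 95% interval within 1.5-fold, red points are the 22 genes described of those with smallest p. Gli1 (9.03) and Ptch1 (3.20) rest on Lung-Ctr 1, and most blue points are at 32 CPM (5 on the x axis) or above.

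The contrast of Lung-LMP1 with LMP1 shares no library with that of Lung-Ctr with Ctr, and the difference between the 2 contrasts was tested in the same fit. edgeR called 120 of 13460 genes (0.892%), 109 with a higher Lung contrast in TMPL and 11 with a lower one. Leaving out 1 of the 10 libraries gave between 4 calls (without LMP1 1) and 331 calls (without Ctr 2). Mpzl2 had 251, 248 and 264 CPM in Lung-LMP1, against 38.3 and 51.1 CPM in LMP1, beside its 397 and 429 CPM in Lung-Ctr and 202 to 240 CPM in Ctr, an interaction of 1.62 ± 0.22 (edgeR adjusted p 0.0239). Amotl2 had 46.7, 71.8 and 59.3 CPM in Lung-LMP1, against 180 and 102 CPM in LMP1, an interaction of -2.55 ± 0.42 (edgeR adjusted p 0.0395). For Amotl2 the difference between groups thus had opposite signs in TMP and TMPL. Krt5 had 597 to 1890 CPM in Lung-LMP1, against 4.33 and 12.2 CPM in LMP1, lower than in any of the 5 TMP libraries.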

How the data were processed

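Messenger RNA of 16 organoid libraries was sequenced, and the tables hold counts of reads per gene, deposited by the authors as whole numbers per the file headers. The submitters' processing notes name STAR, the mouse build mm10, DESeq and DESeq2. The sources at hand do not state the counting tool, gene annotation, strand setting or versions. Scaled copies of the counts (16 per-sample columns) and the deposited fold changes were not used.

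The 5 TMP libraries and 5 TMPL libraries, joined by gene symbol (24421 genes), were fitted together with edgeR 4.0.16 in R 4.3.3 (limma 3.58.1): TMM scaling, the default expression filter (13460 genes kept), 1 mean for each of the 4 groups, quasi-likelihood tests and Benjamini-Hochberg adjustment. CPM are scaled by TMM unless scaling by total count is stated, and spreads were taken on log2(CPM + 0.5). An SE is that of the log2 fold change, and intervals are 95%. Alternatives were DESeq2 1.42.0, RLE scaling, no filter, the 5 TMP libraries alone, each library left out, the replicate number as a block, and a correction for length and GC content (mgcv 1.9.3, GENCODE vM21). The labels do not tie libraries to individual mice or cultures. The p-values thus reflect how far these libraries vary, which may be technical variation. Floors of 3 counts cover counting error only.

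Genes were named by these rules: 12 in each direction by smallest p among genes without overlap between the groups and a mean log2 CPM of at least 3, since none was called; the 10 stable genes of narrowest interval at a mean log2 CPM of at least 5; the 6 of largest range within each group; and, for each list, those of smallest p. Other list members were chosen after their values were seen. The comparison, its 42 gene lists (803 entries) and these rules were chosen with earlier results of these data known. Some genes that these rules select are not reported here. 27 symbols that a spreadsheet had turned into dates were kept in the fit and not named. Gene positions are those of GENCODE vM21 on GRCm38.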

Additional observations from a re-analysis of the deposited data

Results flagged for a closer look

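For 5 genes named by the rules, the Lung contrast differed between the TMPL and TMP genotypes by edgeR's interaction test; each value is the log2 fold change of Lung-LMP1 over LMP1 minus that of Lung-Ctr over Ctr. Ap1m2, an adaptor subunit of epithelial sorting, had an interaction of 4.28 ± 0.398 (SE, adjusted p 0.00716), with 90.8, 102 and 90.7 CPM in Lung-LMP1, against 2.75 and 4.88 CPM in LMP1, and with 123 and 108 CPM in Lung-Ctr, against 95.8, 68.2 and 108 CPM in Ctr. Rab25, a small GTPase of epithelial recycling, had 3.37 ± 0.395 (edgeR adjusted p 0.0195), with 180, 160 and 170 CPM in Lung-LMP1, against 9.24 and 14.8 CPM in LMP1, and with 148 and 191 CPM in Lung-Ctr, against 132, 89.2 and 152 CPM in Ctr. Both genes were low in LMP1 alone.

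Krt23 had 10.6 ± 1.91 (edgeR adjusted p 0.0469), with 9.37, 27.9 and 9.80 CPM in Lung-LMP1, against 0 and 0.195 CPM in LMP1, so that this fitted value depends on the prior count. In TMP, Krt23 had 2.05 and 2.15 CPM in Lung-Ctr, against 13.8, 45.0 and 3.37 CPM in Ctr, the opposite direction. Mpzl2 had 1.62 ± 0.22 (edgeR adjusted p 0.0239) and was higher in the Lung libraries of both genotypes. Amotl2 had -2.55 ± 0.415 (edgeR adjusted p 0.0395), with a higher mean in Lung-Ctr than in Ctr, whereas the 3 Lung-LMP1 libraries lay below both LMP1 libraries.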

How the results depend on the processing

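The count of called genes was 0 by edgeR in the fit as reported, and it was 40 by DESeq2 and between 0 and 31 with 1 TMP library left out (31 without Lung-Ctr 2). RLE scaling, no filter, the 5 TMP libraries alone and the length and GC correction also gave 0 by edgeR. The stable count of 2516 was 919 from the 5 TMP libraries alone, 6841 with a bound of 2-fold, and between 1056 and 1938 with 1 library left out. Genes over 2-fold apart within Ctr numbered 2436 on log2(CPM + 2), an alternative chosen after seeing the data, and between 1841 and 2282 with 1 Ctr library left out, where only 2 libraries are compared. The interaction calls, 120 as reported, were 926 by DESeq2 and between 4 and 331 with 1 of 10 libraries left out, also chosen after seeing the data.

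The deviations from the group mean of Lung-Ctr and Ctr libraries with the same replicate number had correlations of -0.0248 and -0.292 across genes. With only 2 Lung-Ctr libraries, their deviations mirror each other. These values therefore cannot show whether replicate numbers pair the libraries. With the number as a replicate block, edgeR called 0 genes and the stable count was 1291.

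Trp53 changed direction to -0.15 without Lung-Ctr 2 and was 0.43 at most when a library was left out. Cdkn2a, -0.01 as reported, was 0.0020 by DESeq2 and 0.0020 with RLE scaling, and ran between -0.9997 and 0.58 with 1 library left out, being 0.15 without Ctr 1. Gli1 ran between -0.76 without Lung-Ctr 1 and 10.03 without Lung-Ctr 2, and without Ctr 3 it did not pass the filter. Leaving Lung-Ctr at 1 library assumes that it varies like the other groups. Low counts limited what could be bounded, as the stable share of 4.03% under 32 CPM shows.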

Other observations

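Further list genes had an unadjusted p under 0.05, and edgeR called none of them. Periplakin (Ppl), of the cornified layer, had 193 and 198 CPM in Lung-Ctr, against 91.1, 148 and 140 CPM in Ctr, while 10 of the 19 squamous genes tested were over 2-fold lower in Lung-Ctr 1 than in Lung-Ctr 2. Col18a1, a further basement membrane collagen, had 236 and 271 CPM in Lung-Ctr, against 158, 126 and 201 CPM in Ctr. Both Lung-Ctr libraries were above Ctr for Ppl and for Col18a1. The Notch target Hes1 had 106 and 122 CPM in Lung-Ctr, against 90.7, 50.8 and 50.8 CPM in Ctr. In addition, 21 of 24 genes of cholesterol synthesis had a higher mean in Lung-Ctr, with a median log2 fold change of 0.12. Of the 24, 15 were highest in Lung-Ctr 1, where 20.3% of all genes were.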
